A study of Homo sapiens with 7 samples.

Results

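Of the 92292 genomic regions in which a PPARα peak was called in HepG2 cells, 5356 (5.8%) had a peak in both libraries of cells given PPARα alone and in none of the 4 libraries of cells given an estrogen receptor as well. They are called PPARα-only regions here. Overlapping peaks of the 6 lists (by at least 1 bp, chromosomes 1 to 22 and X) were merged into regions, and these 5356 were picked by which lists held a peak. All 6 libraries were used to choose them, so no library was left to test them, and every value below is a description. A called peak is not by itself proof of binding.

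HepG2 is an established human liver cancer line. Cells of all 3 groups were transfected with a human PPARα vector and were exposed for 2 h to 10 µM WY14643, which activates PPARα, 48 h after transfection (the labels spell it both Wy13643 and Wy14643). The PPARα+ERα group also carried an ERα vector and was exposed for 45 min beforehand to 10 nM PPT, an ERα-selective agonist. The PPARα+ERβ group carried an ERβ vector and was exposed for 45 min beforehand to 10 nM DPN, an ERβ-selective agonist. The labels name neither an empty vector nor a mock exposure for the PPARα group, so the second receptor, its agonist and the second plasmid cannot be told apart. Chromatin was cut with a nuclease and sonicated, and DNA was recovered with an antibody to PPARα, which does not separate transfected from endogenous receptor. Each group had 2 libraries, numbered by order of deposit, and the labels do not say that they came from separate cultures. The sample without antibody has no list here and was not analysed. In bulk chromatin, a site held in fewer cells and a site held less often in each cell cannot be told apart.

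PPARα is a nuclear receptor that senses fatty acids. Together with its partner RXR it binds paired AGGTCA-like half-sites separated by a single base, and in liver it is known for switching on genes of fatty acid uptake, oxidation and ketone body formation. Estrogen receptors recognise inverted half-sites, share coactivators with PPARα and are themselves activated by ligand.

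The sequences shown first lie at the edges of peaks, because that is where the regions had most in common. For 4916 of the 5356 PPARα-only regions (91.8%, Wilson 95% interval 91.0 to 92.5%), the peaks of the 2 PPARα libraries had exactly the same start or exactly the same end. Such a base is called a shared edge. The share over all 17597 regions with a peak in both PPARα libraries was 88.2%. Sequence could be read only where an edge fell inside one of 34961 promoter windows, each running from 250 bases before to 50 bases after a gene's start site (RefSeq, GRCh38.p14). For regions with a single shared edge, 8 PPARα-only shared edges fell in such a window. All 8 are printed from the plus strand, 5′ to 3′, with the 15 bases just inside the peak in capitals.

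GCG, peak end at chr2:162152435-162152494: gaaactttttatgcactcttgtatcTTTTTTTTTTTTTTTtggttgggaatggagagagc
NAB1, peak end at chr2:190659112-190659157: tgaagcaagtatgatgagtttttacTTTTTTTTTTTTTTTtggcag
AGPAT3, peak end at chr21:43916538-43916578: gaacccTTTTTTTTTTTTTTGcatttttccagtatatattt
NREP, peak start at chr5:111756278-111756337: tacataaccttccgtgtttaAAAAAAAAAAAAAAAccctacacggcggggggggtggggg
NAPEPLD, peak start at chr7:103150212-103150251: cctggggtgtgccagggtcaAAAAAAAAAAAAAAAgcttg
C20orf202, peak start at chr20:1203382-1203441: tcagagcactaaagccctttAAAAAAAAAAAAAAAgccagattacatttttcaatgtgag
LINC00327, peak start at chr13:23469369-23469428: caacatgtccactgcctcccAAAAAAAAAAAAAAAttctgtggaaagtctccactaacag
LOC124902129, peak start at chr9:20347062-20347118: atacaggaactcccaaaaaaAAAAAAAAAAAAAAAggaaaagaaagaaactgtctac

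For contrast, 2 edges that were not shared, at the far side of PPARα-only peaks, read as follows, with the same 15 bases in capitals.

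GUCA1C, peak end at chr3:108953880-108953935: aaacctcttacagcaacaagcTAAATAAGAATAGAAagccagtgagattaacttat
ZNF154, peak start at chr19:57709375-57709434: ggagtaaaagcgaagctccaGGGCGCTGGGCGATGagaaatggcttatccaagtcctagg

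All 8 shared edges held a run of a single base, A inside a peak start and T inside a peak end. Of the 15 bases, 15 were A or T in this sense at 7 edges and 14 at AGPAT3. In all 8 the run stopped at base 15, counted inward from the edge, and base 16 was another base. At the 8 unshared edges of PPARα-only peaks that fell in a window, the same count had a median of 3 and a range of 0 to 5. Over all stretches of 15 bases in all promoter windows, each counted once for A and once for T, 0.0742% held 12 or more of that base. The search for such runs was chosen after the sequences had been seen.

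The same runs stood at the shared edges of the other sets. Among all regions with both PPARα peaks, 24 of 24 shared edges in a window held 12 or more of 15 bases (Wilson 86.2 to 100%), and 0 of 41 unshared edges did (0 to 8.57%). For regions kept with ERβ, which had peaks in all 4 PPARα and PPARα+ERβ libraries and in no PPARα+ERα library, the counts were 6 of 6 and 0 of 21. For regions called only with PPARα+ERα, 7 of 7 shared edges and 1 of 36 unshared edges held such a run. A run at the shared edge was therefore not a feature of the PPARα-only regions alone. The labels name a DNA SMART kit for the libraries, a chemistry that adds a homopolymer tail to DNA ends and primes from it. Its part in these edges was not tested. Nor was its part in the peaks themselves, so whether the regions, folds and genes given below come from binding or from library preparation was not tested either.

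**Figure D1:**
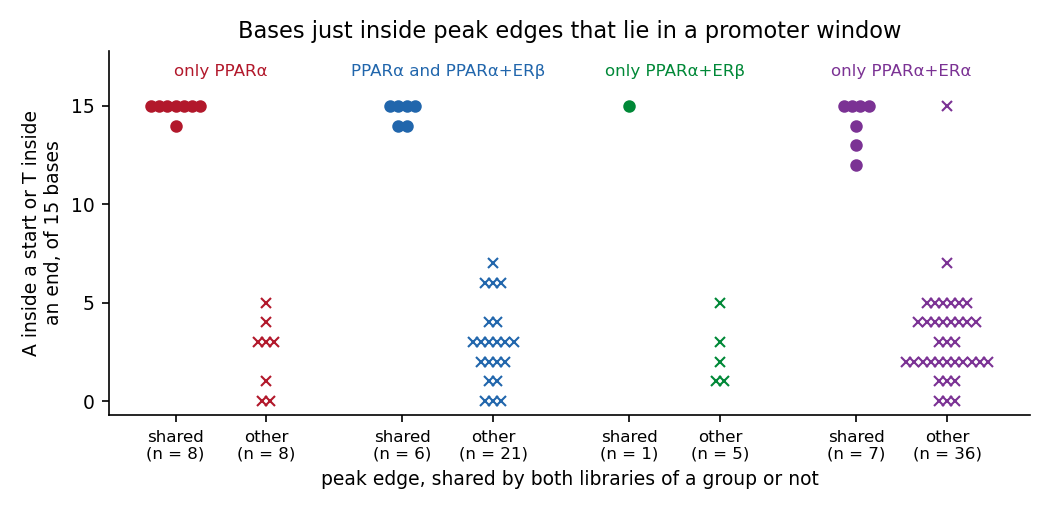
Bases just inside peak edges that lie in a promoter window, as the number of A inside a peak start or T inside a peak end, of 15. Circles are edges shared by both libraries of a group and crosses are edges that were not, with the number of edges under each column. The 8 shared edges of PPARα-only regions sit at 14 or 15 and the 8 unshared ones between 0 and 5.

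Genome-wide, 2353 PPARα-only regions had only the start in common between libraries (43.9%), 2445 only the end (45.6%), 118 both and 440 neither. The unshared edge differed by a median of 26 bp between libraries. Within 5 bp, 99.0% had an edge in common. The summit, the base with most fragments, lay a median of 129 bp from the shared edge and 215 bp from the other. Shared edges were less frequent among the weakest 1071 PPARα-only regions (79.7%). With the rest split by strength into 4 groups of like size, the share was 92.9 to 96.2%. In regions called only with PPARα+ERα the share was 76.6%, and in those called only with PPARα+ERβ it was 83.4%, each between its own pair of libraries. Of the 5915 regions kept with ERβ, 77.2% had an edge at the same base in all 4 lists. The bases at these edges outside promoter windows were not read.

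The PPARα-only regions made up 30.4% of the 17597 regions with a peak in both PPARα libraries. Most of the others kept a peak with ERβ. Peaks in both PPARα+ERβ libraries and no PPARα+ERα library were found in 5915 (33.6%). A peak in PPARα+ERβ library 1 alone was found in 1799 (10.2%) and in library 2 alone in 3654 (20.8%). Any PPARα+ERα peak was found in 873 (4.96%). For scale, the regions called only with PPARα+ERα (in both its libraries) numbered 7965, or 8.63% of all, and those called only with PPARα+ERβ numbered 1132, or 1.23%. Absence with ERα was thus common to nearly all regions with both PPARα peaks, and the choice of the PPARα-only regions turned on the PPARα+ERβ libraries. Just outside the rule, the 3654 regions missed only through PPARα+ERβ library 2 had a median −log10 q of 8.32 there, and the 1799 missed through library 1 had 7.20. With library 2 left out, 9011 regions would have been PPARα-only.

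**Figure D2:**
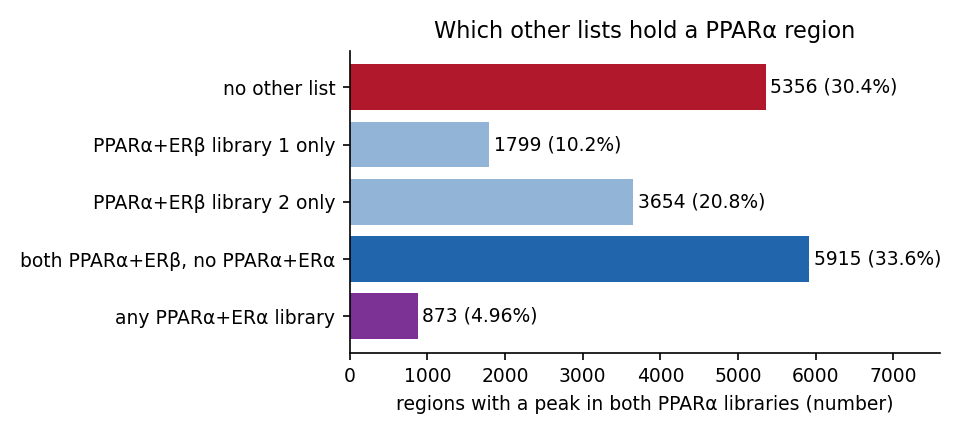
Regions with a peak in both PPARα libraries, by the other lists that held a peak, as numbers and as percent of 17597. The 5356 regions with no other list are somewhat fewer than the 5915 that kept peaks in both PPARα+ERβ libraries.

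Within the PPARα lists, PPARα-only regions were of middling strength. Their median fold, the authors' ratio of summit to local background, was 3.28 in library 1 and 3.92 in library 2, with a range of 1.48 to 17.7 and 1.58 to 18.6. Regions kept with ERβ had medians of 4.79 and 5.69 in the same lists. The median rank by −log10 q was the 47.6 and 55.3 percentile of the list for PPARα-only regions and the 71.4 and 72.6 percentile for the regions kept with ERβ. Yet the PPARα-only summits held more fragments, with medians of 44 and 60 against 38 and 52. These values come from the lists that chose the regions. Fold was higher in library 2 for 4191 regions (78.2%), and across the 5356 regions the folds of the 2 libraries had a Spearman correlation of 0.725, given as a description.

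The sets also differed in background. The deposited fold and −log10 p give back the number of control reads behind each summit. All 6 lists gave the same genome-wide density, 2.56 to 2.60 control reads per kb. That density is the lowest level of a list divided by its shortest peak, 316 and 319 bp for PPARα. Control reads at a summit are not per kb and are on the scale of that lowest level. Where summits of 2 lists fell on the same base and both backgrounds were whole reads within 0.02, the number of control reads was the same in 95.9 to 100% of cases. The lists therefore share 1 control, whose identity is not given in the sources used here. At PPARα-only summits the median was 17.7 control reads in library 1 and 18 in library 2, where the lowest level in these lists was 0.815 and 0.828. Regions kept with ERβ had a median of 10 in both libraries. Regions called only with PPARα+ERβ had 6 and 7, and those called only with PPARα+ERα had 1.10 and 1.16. All regions with both PPARα peaks had a median of 12 in both libraries. Over all peaks of a list, the medians were 11 and 13 for PPARα, 7.55 and 7 for PPARα+ERβ, and 1.28 and 1.22 for PPARα+ERα. Sets of different groups thus also differed as their whole lists did. At least 10 control reads were found at 75.3% and 75.4% of PPARα-only summits, 50.5% and 50.6% of the kept summits, and 1.36% and 1.39% of the summits called only with PPARα+ERα.

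**Figure D3:**
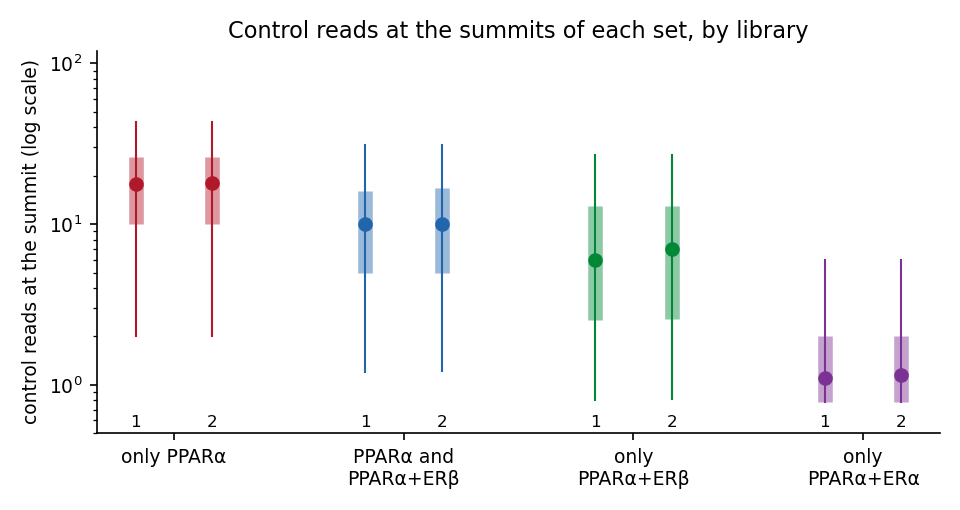
Control reads at the summits of each set in libraries 1 and 2 of its group (log scale). Points are medians, thick bars the interquartile range and thin lines the 5th to 95th percentile. The PPARα-only regions have the highest medians, 17.7 and 18, and the regions called only with PPARα+ERα the lowest, 1.10 and 1.16. Over all peaks of a list (not drawn), the medians are 11 and 13 for PPARα, 7.55 and 7 for PPARα+ERβ, and 1.28 and 1.22 for PPARα+ERα.

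The share of PPARα regions found in no other list was higher at more control reads and lower among the strongest peaks. It was 15.6% (332 of 2122) at 2 or fewer control reads, 28.0% at over 10 to 15 and 60.4% (342 of 566) at over 40. Ranked by strength, it was flat at 35.2 to 36.9% over the weaker 5 deciles and then fell to 10.97% in the strongest 1760 regions. Below the median strength the share went from 21.7% at 5 or fewer control reads to 58.7% at over 20, and above the median from 7.68% to 44.5%. By the lower of the 2 folds, 52.4% of regions with a fold of 2 to 3 were PPARα-only, and 9 of 533 (1.69%) of those with a fold of 10 or more.

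**Figure D4:**
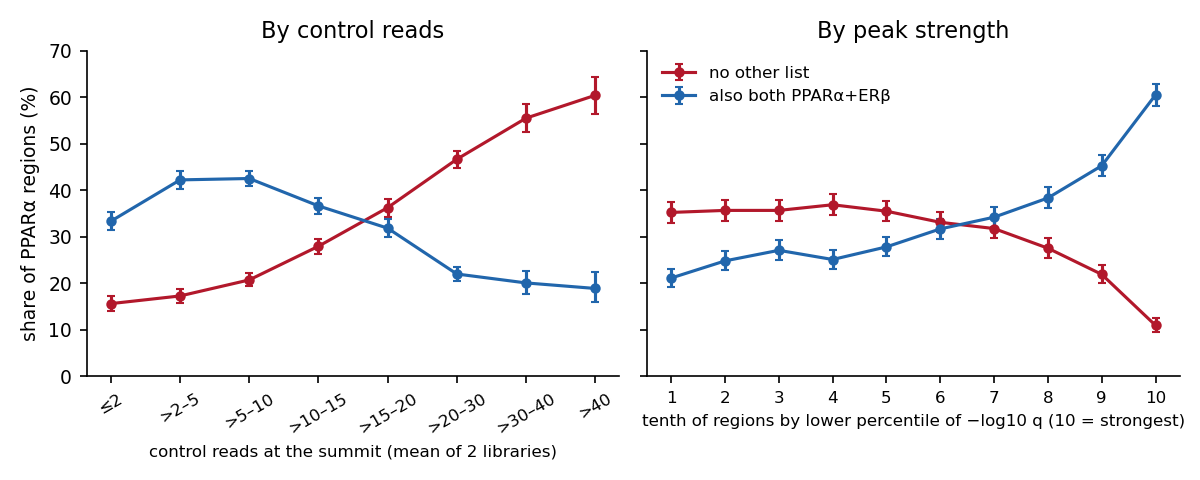
Share of regions with both PPARα peaks that had no other peak (red) or also had both PPARα+ERβ peaks (blue), by control reads at the summit and by decile of peak strength, with Wilson 95% intervals. The red share rises from 15.6% to 60.4% with control reads, and is flat over the weaker 5 deciles before it falls to 10.97% in the strongest.

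The fold needed for a call in the other lists was estimated at each PPARα-only summit. From the control reads and the lowest −log10 p of each list, the lowest fold that would have been called at a PPARα-only summit had a median of 2.197 and 2.17 for the PPARα+ERα libraries. It was lower for the PPARα+ERβ libraries, at 2.03 and 1.93. Every PPARα-only region had already passed the calling level of both PPARα lists over the same control. The next share is therefore high by construction and is no test of the missing peaks. The lower PPARα fold, one of the values that chose the regions, reached the level of all 4 lists at 5129 of the 5356 regions (95.8%). It stood 1.5 times above the level at 43.3% and 45.2% of regions for the PPARα+ERα lists and at 56.9% and 64.5% for the PPARα+ERβ lists. Genome-wide spacing was 779.7 and 725 bp per fragment in the PPARα+ERα libraries, where the PPARα libraries had 537 and 471 bp and the PPARα+ERβ libraries 537 and 449.8 bp. The PPARα+ERα libraries were thus the shallowest, and the part of depth in their missing peaks was not tested. Signal below the calling level was not measured here.

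With all called peaks, PPARα-only regions lay farther from protein-coding genes than the other sets. Their median distance to the nearer end of a protein-coding gene was 54.2 kb, compared with 39.1 kb for regions kept with ERβ and 41.9 kb for those called only with PPARα+ERα. Within 3 kb of such an end lay 309 of them (5.77%, Wilson 5.18 to 6.43%), compared with 7.91% (7.25 to 8.63%) of the kept regions, 9.002% of those called only with PPARα+ERα and 7.99% of all regions. More than 100 kb from any protein-coding gene lay 1445 (27.0%), compared with 21.6%, 22.0% and 21.2%. For genes of any kind, 15.0% were within 3 kb of an end and 59.3% within a span, compared with 17.5% and 62.1% of all regions. With peaks limited to a background at most 3 times the genome-wide level, 369 PPARα-only regions were left. Of these, 20.9% (17.0 to 25.3%) were within 3 kb of an end and 56.6% within a span. The other sets were not recounted under that limit, so the lower share near gene ends was not shown to hold there. Within 1 kb of a start site lay 66 of 5090 summits (1.30%, 1.02 to 1.646%), compared with 2.16% (1.81 to 2.58%) of the kept summits. Start sites on chromosome 8 were not analysed here. The intervals cover counting error only, and regions are not replicates of a condition.

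**Figure D5:**
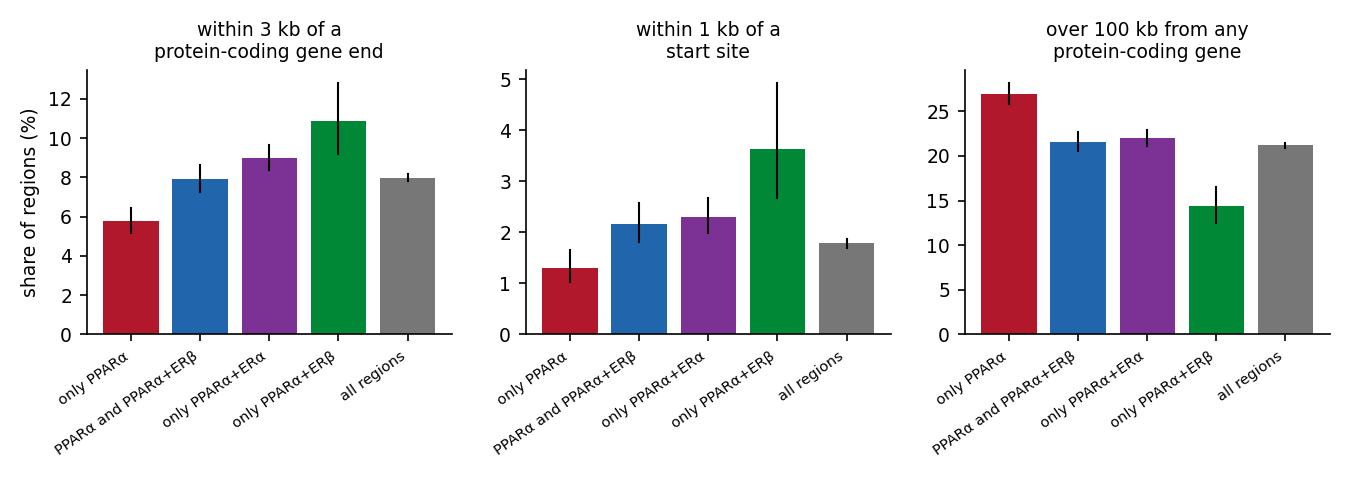
Share of each set of regions within 3 kb of a protein-coding gene end, within 1 kb of a start site and over 100 kb from any protein-coding gene, with Wilson 95% intervals as black lines. PPARα-only regions are lowest in the first 2 panels (5.77% and 1.30%) and at 27.0% highest in the third.

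Where the strand of the gene was known, PPARα-only regions did not favour its start. They lay near the start of 137 and near the other end of 153 of 280 protein-coding genes. The kept regions lay near the start of 251 and the other end of 193 of 417 genes, and regions called only with PPARα+ERα near the start of 408 and the other end of 273 of 651. These counts were not tested against each other.

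The strongest PPARα-only regions, by the lower of their percentiles in the PPARα lists, were mostly between genes. The first lay 99.0 kb from KCNS3, a potassium channel subunit (chr2:18031675-18032080), with a fold of 6.83 in library 1 and 8.60 in library 2. The second lay inside FA2H, which hydroxylates fatty acids for sphingolipids (chr16:74730751-74731312), with folds of 4.95 and 7.16. The third lay in the pseudogene FBXL9P, 8.93 kb from ELMO3 (chr16:67212775-67213317), with folds of 4.77 and 7.25. All 3 stood on many control reads, 17.1 and 17.3, 28 and 28, and 30 and 30. SORCS1, a sorting receptor, was the nearest gene to a region 570 kb away with folds of 8.12 and 11.7. Others lay nearest to CDH10, LRFN5, ZWINT, ATP2B1, TRIB2, LOC124903856 and RPIA.

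Only 350 of 19970 protein-coding genes had a PPARα-only region within 3 kb of an end (1.75%), and 1922 had one within the span (9.62%). The 350 became 1482 without PPARα library 1, 561 without PPARα library 2, 686 without PPARα+ERβ library 2 and 40 with only the peaks whose background was at most 3 times the genome-wide level. Near an end, the strongest was at TMEM135, a peroxisomal and mitochondrial membrane protein, 2.92 kb from the start site, with folds of 4.24 and 5.50 on 28 and 29 control reads. BAMBI, a decoy receptor for TGF-β, followed at 1.42 kb from its start site with folds of 4.05 and 4.85. IL1RL2, a receptor for interleukin-36, had one at 1.72 kb from its start site with folds of 3.88 and 5.11. SLC35A3, a Golgi sugar-nucleotide carrier, had folds of 3.77 and 4.977. At all of these, library 2 was the higher.

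Other genes with a strong region near an end had varied roles. A region within 3 kb of the ends of both PPOX, an enzyme of heme synthesis, and B4GALT3, a galactosyltransferase, had folds of 4.03 and 5.06. AADACL4 had 5.60 and 7.69 at 0.781 kb on 10 and 9.59 control reads. ANTXR1, NOSTRIN, WWTR1 (the Hippo coactivator TAZ) and DPH5 were also among the strongest, with folds of 3.58 to 4.65 in library 1 and 4.37 to 5.24 in library 2. DDX60, an interferon-induced helicase, held one of the steepest, with folds of 9.19 and 8.61. That region stood on 6 and 9 control reads, where the PPARα-only medians were 17.7 and 18. Its summit lay inside the gene, 3.04 kb from an end and so just past the limit.

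Genes of the pathways PPARα is known for were counted against all protein-coding genes, of which 1.75% had a PPARα-only region near an end and 10.5% near an end or within the span. Of 35 genes of fatty acid oxidation none had one near an end, and only HSD17B4, a peroxisomal oxidation enzyme, had one within its span, with folds of 3.54 and 5.23. Any region with both PPARα peaks was near an end in 3 of the 35 and near or within 13. Of 33 further PPARα lipid and signal targets, PNPLA3, a lipid droplet protein, had one near an end with folds of 4.13 and 5.04, and ACOT12, an acetyl-CoA thioesterase, had one in its span with 2.78 and 2.73. Counts of 1 of 35 and 2 of 33 near an end or within the span are too small to place these lists above or below that share, and no test was made. The median gene length was 24.2 kb over all protein-coding genes, 37.7 kb for fatty acid oxidation and 13.5 kb for these targets.

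Other hepatocyte lists also had small counts, which were not tested against the share of 10.5% over all protein-coding genes. Median gene length was 13.5 kb for lipoprotein, 23.5 kb for bile acid and transport, and 20.9 kb for glycolysis and gluconeogenesis genes. It was 11.8 kb for plasma protein genes, 22.6 kb for cytochrome P450 genes and 24.2 kb over all protein-coding genes. None of the 25 lipoprotein genes, 18 bile acid and transport genes or 30 glycolysis and gluconeogenesis genes had a PPARα-only region near an end or within the span. Plasma protein genes had 1 of 30 (complement C5, within the span) and cytochrome P450 genes 1 of 44 (CYP19A1, the aromatase). None of 10 hepatocyte markers, ALB and APOA1 among them, had one either. Peaks do not show expression, so the cell type was not checked from these markers. Among hepatocyte transcription factors, XBP1, which drives the unfolded protein response, had a weak region 2.06 kb from its start site, with folds of 3.35 and 2.88 from 12 and 16 fragments.

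In the receptor and signalling lists most regions lay within the span of a gene, and 1 gene in each of the next 3 lists had one near an end. The share over all genes, 10.5% near or within, is for a shorter median length, and the lists were not tested against it. Of 42 nuclear receptor genes, RORB had one near its start site, with folds of 3.27 and 4.12, and PPARG, ESR1, ESRRA, ESRRG, RARB, NR3C2 and PGR had one within the span, so 8 of 42 in all (median length 56.0 kb). The region inside ESR1, the ERα gene itself, lay 230 kb from an end with folds of 2.94 and 2.94 on 34 and 35 control reads. Coactivator and corepressor genes had 5 of 20, namely TBL1XR1 near an end and NCOA2, NCOA6, PPARGC1A and TBL1X within the span (median length 120.8 kb). At PPARGC1A, the coactivator PGC-1α, the folds were 3.38 and 5.13. Genes of cGMP signalling had 7 of 28, with PDE11A near its start site and PDE1A, PDE3B, PDE6A, PDE10A, PRKG1 and GUCY1A2 within the span (median length 92.6 kb).

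The TGF-β and Hippo pathway list had the most of the larger lists, 10 of 33, with a median gene length of 59.9 kb. It was drawn up with BAMBI and WWTR1 already known from these data, so it is not independent of them. Near an end were BAMBI, WWTR1 (folds 4.33 and 5.00) and STK4, a Hippo kinase (4.12 and 5.15 from 15 and 21 fragments). Within the span were the receptors TGFBR2 (2.66 and 3.41) and TGFBR3 (2.72 and 3.14), the signal transducer SMAD2 (2.92 and 3.91), its repressor SKIL (4.07 and 4.17), the partner factor TEAD1 (3.77 and 3.05), the kinase STK3 (2.31 and 2.38) and its cofactor MOB1A (2.37 and 3.17). Interleukin-1 family receptors had 3 of 10 (median length 49.5 kb) and respiratory chain genes 7 of 54 (11.6 kb), with COX7A1 and ATP5MC3 near an end. Circadian genes had 4 of 23 (35.3 kb), with NPAS2, PER2 and PER3 within the span. Over all protein-coding genes the share near an end or within the span was 10.5% and the median length 24.2 kb. The lists were not tested against that share. The region counted for COX7A1, a heart and muscle subunit of cytochrome oxidase, lay inside CAPNS1, the small calpain subunit, 1.60 kb from the end of that nearest gene. It had folds of 4.63 and 9.13 on 4 and 3.196 control reads.

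Further lists held 1 to 3 genes each, counts too small to place them above or below the share of 10.5% over all protein-coding genes. Their median gene lengths went from 14.3 kb (adipocyte markers) to 48.0 kb (neuron markers), and no test was made. Estrogen response genes had 2 of 25 (XBP1 near an end, PGR within the span), thermogenesis genes 2 of 18 (COX7A1, PPARGC1A), stress response genes 2 of 25 (XBP1, ATF6), interferon-induced genes 1 of 39 (DDX60) and heme synthesis genes 1 of 9 (PPOX). Markers of other cells had 2 of 15 for neurons (RBFOX3, GRIA2), 3 of 15 for muscle (TTN, TNNT2, RYR2) and 1 of 12 for adipocytes (PPARG).

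These counts moved with gene length. A PPARα-only region lay within 231 of 314 protein-coding genes of 500 kb or more (73.6%) and within 407 of 13712 genes under 50 kb (2.97%). NRXN3 and CNTNAP2, both neuronal adhesion genes, held 10 each, and DPP10, LRP1B, DLG2 and RBFOX1 held 7 each, the shortest of them 1403 kb long. Per length, spans of 500 kb or more held 1.94 PPARα-only regions per Mb and all protein-coding spans 1.97 per Mb. For the regions kept with ERβ the same densities were 2.01 and 2.38 per Mb, and for those called only with PPARα+ERα 2.80 and 3.21. Of regions with both PPARα peaks, 10 of 13 in NRXN3, 10 of 23 in CNTNAP2 and 7 of 22 in LRP1B were PPARα-only. The share over all such regions was 30.4%, and these genes were picked for holding many PPARα-only regions.

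Few regions were close together. The median gap between neighbours was 345 kb, and 101 of 5333 gaps were under 10 kb. In 37 places 3 or more followed each other at less than 50 kb. The largest group was 5 within 99.3 kb inside STAU2, an RNA transport protein on chromosome 8. Over the whole gene, 5 of 8 regions with both PPARα peaks were PPARα-only. Such groups were picked and bounded by their PPARα-only regions, so the share inside a group is high by construction. Groups of 4 lay over C9orf85, CACUL1, ZSCAN30 with ZNF24, PAPPA2 and DCHS2, and 1 more lay outside protein-coding genes. The tightest inside a gene was 3 within 12.2 kb of HDAC9. The nearest PPARα+ERα summit was a median of 22.6 kb away, and within 1 kb at 48 of the 5356 regions. For PPARα+ERβ summits these values were 32.5 kb and 31 regions. The PPARα+ERα lists held more peaks, 24505 and 27544 against 17457 and 23302, so the 2 distances are not on equal terms. These distances were not computed for other sets.

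By chromosome, the PPARα-only share of regions with both PPARα peaks was highest on X (36.7%, Wilson 32.2 to 41.5%) and chromosome 18 (34.2%), and lowest on 16 (25.2%, 22.0 to 28.8%), 20 (26.3%) and 14 (26.6%). Control reads at the same summits moved with chromosome in another order. Their median was 33 and 34.0 on chromosome 20, 26 and 27 on chromosome 2, and 7 and 7.52 on X. Regions called only with PPARα+ERα numbered 3.35 for each PPARα-only region on chromosome 20 and 0.375 on X. The part of the control level in these shares was not tested.

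Promoters were rarely touched, and this held for all regions too. Of 34961 promoter windows, 19 overlapped a PPARα-only region (0.0543%). A window was overlapped by 0.509% of all regions and 0.524% of those with both PPARα peaks. Among PPARα-only regions 18 of 5090 did so (0.354%), with an interval of 0.224 to 0.558% that holds both of those shares. For the regions kept with ERβ it was 0.691% (0.506 to 0.943%). Of the 19 windows, the first by strength was LINC00327 (folds 5.34 and 6.46 on 9 and 9 control reads). LOC105379053, LINP1, GCG, LINC01206, NREP, ZNF154, NAPEPLD, LOC105372465 and LOC124902129 followed. GCG encodes glucagon, and its mean summit lay 107 bases before the start site, with folds of 2.56 and 3.37 on 42 control reads in both libraries. NREP had folds of 3.64 and 4.67 on 15 and 15. NAPEPLD, the phospholipase that makes N-acylethanolamines, lipids that include PPARα ligands, had 2.78 and 3.60 on 28 and 28. Those printed above with lower ranks, NAB1, a corepressor of EGR factors, AGPAT3, an acyltransferase of phospholipid synthesis, C20orf202 and GUCA1C, were added after their values had been seen, because an edge lay in the window.

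Runs of 12 or more A or T were found in 9 of the 19 windows (47.4%, Wilson 27.3 to 68.3%), 7 of 43 for regions kept with ERβ (16.3%, 8.12 to 29.97%), 10 of 74 for regions called only with PPARα+ERα (13.5%) and 1.96% of all windows. Over all regions with both PPARα peaks, which include the PPARα-only ones, 31 of 96 windows held one (32.3%, 23.8 to 42.2%). The median share of A and T was 60.7% in the 19 windows, 49.7% in the 96, 44.7% in the 43 and 41.3% over all. The ninth window with a run was that of LOC105372465, where the run lay inside the region, away from its edges. Motifs were searched on both strands. No window held AGGTCA repeated after 1 base, the PPARα-type element, which 0.0229% of all windows hold, or a looser form with any base at position 4 of each copy (0.312%). The half-site AGGTCA was in 3 of 19 (13.8% of all windows), in NAB1 and in both overlapping windows of GUCA1C, and the palindromic estrogen response element (GGTCA and TGACC, 3 bases apart) in none (0.0572%). The GC box GGGCGG was in 2 of 19 windows (45.0% of all) and the TATA box TATAAA in 7 of 19 (11.5% of all), among them GCG. A match is a description of these letters only, and with 19 windows an absence says little. Of 1562 miRNA hairpins, 3 overlapped a PPARα-only region, MIR3155A, MIR3155B and MIR10524. No share for other regions was set beside this count, so it is a description only.

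Most of these regions rested on peaks over a raised background. With peaks limited in every list to those whose background was at most 3 times the genome-wide one, 369 PPARα-only regions were left, 16.6% of those with both PPARα peaks, and 3 of the 102 regions picked by the naming rule remained. Of the 369, 72.1% had a shared edge and 20.9% lay within 3 kb of a gene end. With PPARα library 1 left out 18721 regions met the rule, and with PPARα library 2 left out 8450 did.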

How the data were processed

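Per the submitters' processing notes, the tools were DiffBind 2.16, MACS2 2.2.7.1, Bowtie 1.0.1, HOMER 4.11, Trim Galore 0.6.4 and ChIPseeker 1.18.0, beside builds hg38 and GRCh38.p13. Their roles and the control are not given in the sources used here. The deposited lists hold 1 peak per line, with the authors' score, their fold (a ratio of summit to local background) and the authors' −log10 p and −log10 q. Lists held 17457 to 36302 peaks on chromosomes 1 to 22 and X, and 27 to 96 peaks elsewhere were left out.

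Fragments and background at each summit were recovered from fold and −log10 p, taken as a Poisson tail with 1 added above and below. With whole fragments, the authors' −log10 p came back to within 0.001 in 100% of peaks. Background spacing gave the value of 1 control read, and in the PPARα lists 83.7 and 85.7% of backgrounds were whole reads within 0.02. Recovery and merging were tested on simulated data. Where a list had several peaks in a region, the one with the highest −log10 q was used. Genes, start sites and sequences came from RefSeq tables of GRCh38.p14, whose chromosome coordinates are those of hg38, and genome sequence outside promoter windows was not used. Near means a mean summit within 3 kb of a gene end. Shares carry Wilson 95% intervals for counting error only.

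The regions and the 25 gene lists were chosen with earlier results of these data known, and 619 of 623 symbols matched. Named were the 12 strongest regions and 12 strongest genes near an end, the 8 genes with most regions, up to 6 genes per list, up to 10 promoter windows, the 5 weakest regions, the 5 densest clusters, and genes reported before. Alternatives covered peak thresholds, list length, overlap, background, gene distance and leaving out each library. Some named genes and list counts are not reported here. The search for shared edges and runs was added after seeing the data. Software was SciPy 1.17.1, NumPy 2.4.6 and pandas 2.3.3 under Python 3.11.15, with Matplotlib 3.10.9 for plots.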

Additional observations from a re-analysis of the deposited data

How the results depend on the processing

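The number of PPARα-only regions was 2786 with lists of equal length and 369 with low-background peaks only. It ranged from 5375 to 18721 with a library left out. As a share of regions with both PPARα peaks it was 29.2% with −log10 q of 5 or more in the PPARα lists, 28.5% with equal lists and 16.6% with low-background peaks, and 30.5 to 51.6% with a library left out. The share near a gene end was 20.9% with low-background peaks, 5.40% at 1 kb and 38.0% at 10 kb, and 15.1 to 16.7% with a library left out. The share within a gene span was 56.6% with low-background peaks and 59.4 to 61.5% with a library left out. Genes with a region near an end numbered 176 with equal lists, 40 with low-background peaks, 98 at 1 kb and 1246 at 10 kb, and 352 to 1482 with a library left out. For the results added after seeing the data, a shared edge was found in 94.9% at the stricter q, 94.0% with equal lists and 72.1% with low-background peaks, and in 90.3 to 91.8% with a PPARα+ERα or PPARα+ERβ library left out. Median control reads were 1.39 with low-background peaks, which that filter sets by construction, and 15 to 17 with such a library left out. Joining peaks up to 500 bp apart or using 100 bp either side of summits moved none of the results computed with them. Asking for 10 or all 15 bases at an edge gave 8 and 7 of 8. Edges could not be compared with a PPARα library left out. Only 24 shared edges of PPARα regions could be read, which limits that result. No paired analysis was possible because the labels give no replicate numbers and no result comes from a test.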

Other observations

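The weakest PPARα-only regions, by the lower of the percentiles in the PPARα lists, had VSTM2A, PCDH10, TAOK1, KCNMA1 and C3orf49 among their nearest protein-coding genes. The first 2 of these genes were 492 and 1272 kb away. At the region nearest VSTM2A the folds were 2.07 and 1.82 with −log10 q of 2.76 and 1.53. In TAOK1, a stress kinase, the folds were 2.48 and 3.57 from 14 and 23 fragments on 7 control reads in both libraries. In KCNMA1, a calcium-activated potassium channel, they were 3.48 and 2.896 from 10 and 9 fragments on 3 control reads in both. Among the 12 strongest, the region nearest LRFN5 (chr14:43187208-43187618) stood on 67 control reads in both libraries, with folds of 3.28 and 3.93 from 161 and 218 fragments. A region in IL1RAPL1 on chromosome X stood on 1.27 and 1.28 control reads, with folds of 12.02 and 14.7. In LINP1, a noncoding RNA of DNA repair, the promoter region had folds of 7.22 and 7.74 on 3.80 and 3.84 control reads, and its shared edge lay outside the promoter window.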
